A study of Mus musculus with 3 samples.

Results

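Regulatory T cells were isolated in silico from the transcriptomes of single CD45+ cells that were sorted out of KP1 tumors, a mouse model of small-cell lung cancer (SCLC). A barcode was taken as a regulatory T cell when it had at least 200 detected genes, at most 20% mitochondrial unique molecular identifiers (UMIs, which count captured transcripts), at least 2 UMIs over 6 T cell genes (Cd3d, Cd3e, Cd3g, Trac, Trbc1 and Trbc2), fewer than 5 UMIs over 5 myeloid genes (Lyz2, C1qa, C1qb, S100a8 and S100a9), at least 1 Foxp3 UMI and 0 UMIs of Cd8a and Cd8b1. This gave 1701 cells among 71909 barcodes that passed the gene and mitochondrial limits, or 2.37%. Of these, 223 came from mice given mono-IL-10 (a monomeric IL-10, labelled Supermono-10), 744 from mice given the IL-10/2-Trikine (mono-IL-10 linked to a modified IL-2 that brings the IL-2 receptor β chain, Il2rb, into the IL-10 receptor complex) and 734 from mice given the IL-10/2-Trikine with an antibody against PD-1, the combination.

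All mice were wild-type B6129SF1/J hybrids that received 500000 KP1 cells under the skin. Doses of 3 µg cytokine were given on alternate days between day 7 and day 19, when tumors were harvested. The combination group was also given 200 µg antibody per dose, starting with the cytokine on day 7, then on day 11 and day 15, and for the last time on day 19. The methods can also be read as giving the antibody to all groups, whereas the titles and treatment entries of the samples mention it for the combination alone, and these were followed here. Live CD45+ cells were sorted, although the labels call the samples T cells, and each group was 1 library with no stated number of mice. No untreated library was analysed here, so each level is relative to another cytokine-treated library.

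Regulatory T cells are CD4+ T cells specified by the transcription factor Foxp3, and they restrain other immune cells. They keep a high-affinity IL-2 receptor through its alpha chain Il2ra (CD25), depend on IL-2 from other cells and signal through STAT5, and they withdraw costimulation through Ctla4. In tumors and tissues they are known to carry activation receptors of the TNF receptor family, to release IL-10 and active TGF-β, and in part to take on a repair program with the IL-33 receptor Il1rl1 (ST2) and amphiregulin (Areg). Since the IL-10/2-Trikine engages receptor chains that such cells carry, their number, division and gene expression were compared among the 3 libraries.

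Foxp3 chose the cells and is therefore given as a description only. A single Foxp3 UMI admitted 707 of the 1701 cells (41.6%), 453 had 2 and 541 had 3 or more, up to 10. Over all barcodes with any Foxp3 UMI, 3948 in number, 1302 were left out by their Cd8a or Cd8b1 UMIs, 846 by the myeloid limit and 99 by the T cell limit. Just inside the limits lay 13 cells with 2 T cell UMIs and 9 with 4 myeloid UMIs. Just outside lay 23 barcodes with 1 T cell UMI, 7 with 5 myeloid UMIs and 259 with 1 UMI of Cd8a or Cd8b1. Cd4 was not part of the rule, and a Cd4 UMI was seen in 80.3%, 77.8% and 80.7% of the cells in the mono-IL-10, IL-10/2-Trikine and combination libraries. Series of 3 values below follow this order of libraries.

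The cells were described in 2 classes, 626 cycling cells with at least 3 UMIs of Mki67 and Top2a together, and 1075 non-cycling cells under that limit. Near that limit, 102 non-cycling cells had 2 such UMIs and 54 cycling cells had 3. The non-cycling class held 158, 457 and 460 cells with a median of 5345, 4260 and 4994 UMIs each, and the cycling class held 65, 287 and 274 cells with 14096, 15146 and 16304. Levels are in CPM, for which the UMIs of a gene were summed over a class in a library and scaled to the UMIs of all genes in that class. Over all barcodes the libraries held 158570946 to 197176873 UMIs. Each group is 1 library, so differences between libraries carry no test, and their intervals cover counting error only and not variation among mice.

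The label of regulatory T cell was set beside Ikzf2, Itgb8 and Il2ra, none of which entered the rule. The cells and gene lists were chosen with earlier results of these data known, so this is no independent check of the label. Ikzf2, which encodes the Foxp3 partner Helios, was at 2640.3, 2407 and 2774 CPM in non-cycling cells. In Foxp3-negative CD4 T cells, defined by the same T cell and myeloid limits with at least 1 Cd4 UMI and 0 UMIs of Foxp3, Cd8a and Cd8b1 and also non-cycling, it was at 418, 736 and 845 CPM. Itgb8, the integrin chain that activates TGF-β, was at 118, 86.4 and 119 CPM against 25.6, 13.8 and 12.4, and Il2ra at 227, 479.7 and 425 against 49.4, 197 and 159. All 3 markers were therefore higher in the gated cells in each library. Without thinning an Ikzf2 UMI was seen in 94.9%, 96.5% and 97.6% of these cells. With every cell thinned to 1000 UMIs, which left out 3, 4 and 5 of the regulatory T cells as shallower, an Ikzf2 UMI was seen in 81.9, 83.2 and 84.8% of the non-cycling cells and in 6.37, 10.7 and 8.78% of neutrophil barcodes. The latter, with at least 2 UMIs of Csf3r, Retnlg and Cxcr2, should lack the transcript and serve as background, although the class was not cleared of doublets or other myeloid cells.

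Markers of other cell types were also measured in the gated cells and summed over the non-cycling ones. The 5 neutrophil markers summed to 2.11, 3.68 and 1.74 CPM and the 8 macrophage markers to 105, 72.4 and 112 CPM, but the gate itself limited S100a8, S100a9, Lyz2, C1qa and C1qb, so that these sums are no check of the gate. The 8 NK cell markers, Gzma among them, summed to 387, 2286 and 2176 CPM, against 1640, 4884 and 5262 in Foxp3-negative CD4 T cells and 2828, 7735 and 5658 over all kept barcodes. Gzma alone held 243, 2026 and 1917 CPM of the sums in regulatory T cells. It held 1389, 4641 and 4994 CPM of those in Foxp3-negative CD4 T cells, so most of each sum in these classes was Gzma. The 6 B cell markers summed to 352, 186 and 1070 CPM, against 447, 279 and 293 over all kept barcodes, and in the combination library 1 barcode held 2481 of 2897 Ighm UMIs, so no order is read from that sum. The 6 dendritic cell markers summed to 52.6, 77.8 and 72.4 CPM with Xcr1 at 0 in every library, against 47.0, 41.0 and 44.0 over all kept barcodes. The 7 markers of the KP1 tumor cells summed to 62.1, 149 and 65.5 CPM, against 56.2, 89.0 and 78.8. These sums were thus higher than over all kept barcodes in each library for the dendritic cell markers and in the mono-IL-10 and IL-10/2-Trikine libraries for the tumor cell markers. Calca alone held 40.0, 112 and 29.2 CPM of the tumor cell sums, and 27 of its 38 UMIs with mono-IL-10 lay in 1 barcode. In the mono-IL-10 library Flt3, Clec9a and Siglech were also at 0. The sums therefore rested on few markers there, and no carry-over of a cell type is read from them. Doublets called by simulation made up 7.17%, 15.5% and 2.18% of the cells and 12.3%, 27.5% and 2.19% of the cycling ones. The score threshold for a doublet was set in each library on its own, at 0.186, 0.183 and 0.352, and 14.4%, 16.8% and 4.09% of all kept barcodes were called, so these shares are not compared between libraries. Libraries shared between 137 and 180 barcode sequences in each pair among kept barcodes, and 1 barcode was a regulatory T cell in both the mono-IL-10 and the combination library.

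Regulatory T cells took a larger share of T cells in both IL-10/2-Trikine libraries than in the mono-IL-10 library. They were 223 of 9083 T gate barcodes (2.46%, exact 95% interval 2.15 to 2.79) with mono-IL-10, 744 of 14088 (5.28%, 4.92 to 5.66) with the IL-10/2-Trikine and 734 of 14524 (5.05%, 4.70 to 5.42) with the combination. The share with the IL-10/2-Trikine was thus 2.15 times that with mono-IL-10 (1.86 to 2.49), and the share with the combination was 0.957 times that with the IL-10/2-Trikine (0.866 to 1.06), a difference within counting error for this denominator. Of all kept barcodes, regulatory T cells were 1.003%, 3.28% and 2.72%, with ratios of 3.27 (2.82 to 3.79) and 0.831 (0.751 to 0.918). The myeloid limit left out 309 of 784, 334 of 1666 and 203 of 1498 barcodes with any Foxp3 UMI. The part of this uneven exclusion in the ratios was not tested. Among T gate barcodes without Cd8a or Cd8b1 UMIs the shares were 5.998%, 9.95% and 8.98%, with ratios of 1.66 (1.44 to 1.92) and 0.902 (0.819 to 0.994). After thinning to 1000 UMIs per cell the T gate shares were 0.744%, 1.59% and 1.52%, and the first ratio was 2.13 (1.62 to 2.81).

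A Foxp3 UMI also occurred in cells that should lack it. In thinned CD8 T cells its share was 0.209%, 0.525% and 0.984%, and in thinned neutrophils 0.379%, 0.517% and 0.338%, against 1.86%, 3.01% and 2.74% of T gate barcodes without Cd8a or Cd8b1 UMIs. Without thinning, Foxp3 was seen in 5.11%, 5.70% and 4.56% of neutrophils, whose median depth was 8731, 6155.5 and 7255.5 UMIs, and the T gate barcodes with the shares above had a median depth of 3842.5, 5151.5 and 4178. The share of Foxp3+ barcodes therefore stood above background at matched depth in each library, while single gated cells with 1 Foxp3 UMI could not be told from background. For the IL-10/2-Trikine divided by mono-IL-10, the unthinned Foxp3 share was 3.44 times (2.46 to 4.82) in CD8 T cells. It was 1.94 times (1.31 to 2.86) in B cell barcodes and 1.12 times (0.789 to 1.58) in neutrophils. After thinning these ratios were 2.51 (1.17 to 5.38), 1.42 (0.288 to 6.99) and 1.37 (0.386 to 4.82). The part of free RNA in the ratio of 2.15 for regulatory T cells was not tested. Summed over T gate barcodes Foxp3 was at 17.9, 22.6 and 29.0 CPM, and over those without Cd8a or Cd8b1 UMIs at 26.0, 26.9 and 30.3 CPM, a narrower spread than that of the shares. Non-cycling regulatory T cells held 344, 375 and 339 CPM of Foxp3 and cycling ones 167, 138 and 136.

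**Figure D1:**
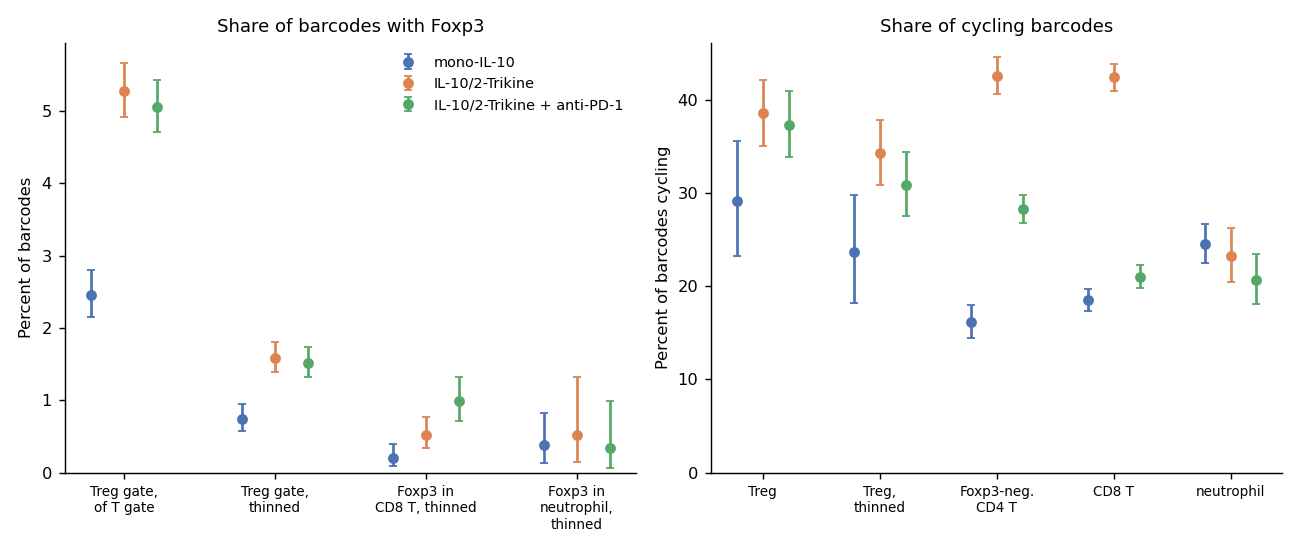
Shares of barcodes (%, linear axes) in the 3 libraries, with points for shares and bars for exact 95% binomial intervals. Regulatory T cells made up 2.46%, 5.28% and 5.05% of T gate barcodes (left), and the cycling share among them was 29.1%, 38.6% and 37.3%, beside the other cell classes (right).

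To find what sets these cells apart in all 3 treatments, non-cycling regulatory T cells were compared with non-cycling Foxp3-negative CD4 T cells by edgeR's quasi-likelihood test on UMIs summed per library and class, with library as a block and Benjamini-Hochberg adjustment over 10850 genes. The genes of the rule were left out, and since the libraries differ in treatment, the p-values measure agreement among treatments and not among replicate mice. At an adjusted p under 0.05, 934 genes (8.61%) were higher and 659 (6.07%) lower in regulatory T cells, 1593 in all, and the count was 759 without the IL-10/2-Trikine library and 922 without the combination library. DESeq2 called 517 higher and 288 lower. The median log2 fold change of all genes was -0.01, beside which the list medians below are read. Regulatory T cells in which Foxp3 was not captured can lie in the Foxp3-negative class, and Cd4, at 354, 426 and 423 CPM against 688, 652 and 773, was lower in regulatory T cells partly because the other class required a Cd4 UMI.

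The core regulatory T cell genes were higher in the gated cells as a group: 13 of 14 tested genes passed upward and 1 downward, with a median log2 fold change of 1.49. The count upward was also 13 without each of the 3 libraries in turn and 8 without the library block. Ikzf2 was higher by a log2 fold change of 2.03 ± 0.16 (SE; edgeR adjusted p = 1.74e-05) and Itgb8 by 2.78 ± 0.17 (edgeR adjusted p = 5.17e-06). Lrrc32, which holds latent TGF-β at the cell surface, was low but sharply divided, at 21.1, 31.9 and 43.9 CPM against 2.58, 2.89 and 1.82 (log2 fold change 3.88 ± 0.28). Izumo1r, the folate receptor-like protein found on these cells, was at 262, 212 and 229 CPM against 75.9, 60.3 and 41.1. Il2ra was higher by 1.58 ± 0.14 and Ctla4 by 1.03 ± 0.11 (edgeR adjusted p = 3.12e-05 and 0.000102). The exception was Nrp1, a receptor often found on regulatory T cells of thymic origin, at 51.6, 55.7 and 37.6 CPM against 59.9, 85.2 and 68.3 (log2 fold change -0.61 ± 0.12, edgeR adjusted p = 0.00551), a call that was lost without the library block and without the IL-10/2-Trikine or the combination library.

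Some suppressive effector genes were higher in regulatory T cells than in other CD4 T cells. Of 13 tested, 6 passed, each of them upward, with a median of 0.58. Il10 was at 141, 227 and 192 CPM in regulatory T cells and 36.8, 69.1 and 86.7 in Foxp3-negative CD4 T cells, and Gzmb, the cytotoxic protease granzyme B, at 2371, 4845 and 4463 against 789, 2087 and 2768. Ctla4, Itgb8, Lrrc32 and the inhibitory receptor Tigit made up the rest of the 6. Neither Tgfb1 (log2 fold change -0.09 ± 0.09) nor the adenosine-producing enzymes Entpd1 (0.20 ± 0.11) and Nt5e (0.16 ± 0.09) passed, nor did perforin, Prf1 (-0.17 ± 0.11), or the checkpoint receptor Lag3 (-0.08 ± 0.12). A Gzmb UMI was seen in 45.2, 81.5 and 78.0% of thinned non-cycling cells and in 13.5, 18.7 and 16.4% of thinned neutrophils, so the level in regulatory T cells lay above free RNA.

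Activation and tissue genes followed. Of 16 tested genes of tumor-activated regulatory T cells, 8 passed upward and 3 downward, and of 10 tissue repair genes, 4 passed upward and 1 downward. Without the library block 1 and 1 of the former and 2 and 0 of the latter passed. Tnfrsf9 (4-1BB) was at 1009.6, 1159.9 and 1199.5 CPM against 246, 485 and 604 and Tnfrsf4 (OX40) at 678, 959.8 and 1119 against 264, 452 and 526, with log2 fold changes of 1.43 ± 0.15 and 1.19 ± 0.08. Ccr8, a chemokine receptor used as a marker of regulatory T cells in tumors, was sparse, at 25.3, 18.4 and 25.8 CPM against 11.97, 14.8 and 15.3 (log2 fold change 0.69 ± 0.18, edgeR adjusted p = 0.0231). Klrg1, an inhibitory lectin of terminally activated cells, was at 104, 178 and 102 against 16.8, 28.5 and 10.3 (log2 fold change 2.89 ± 0.13, edgeR adjusted p = 9.01e-07). Il1rl1 was at 37.9, 123 and 118 against 12.3, 56.4 and 34.5 and Areg at 838, 1293 and 1054 against 302, 607 and 739.99, whereas Gata3 (0.01 ± 0.11), Batf (-0.16 ± 0.08) and Rora (0.08 ± 0.07) did not pass. The 3 genes of the tumor-activated list that passed downward were Pdcd1 (PD-1), at 68.4, 138 and 197 CPM against 215, 311 and 412, the chemokine receptor Cxcr6, at 94.7, 188 and 202 against 359, 345 and 521, and Havcr2 (TIM-3), at 136, 184 and 165 against 159, 217 and 314. PD-1 transcript, the target of the antibody, was thus lower in regulatory T cells than in other CD4 T cells in each library (log2 fold change -1.21 ± 0.10, edgeR adjusted p = 2.19e-05).

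**Figure D2:**
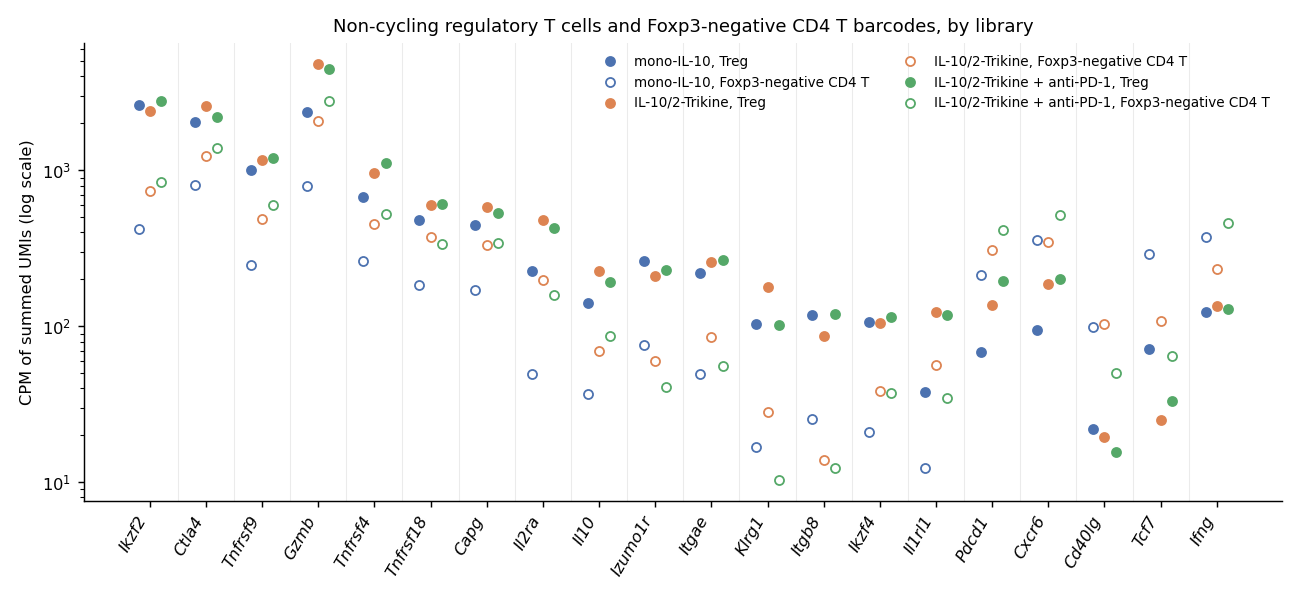
Levels of 20 genes (CPM, log axis) in non-cycling regulatory T cells (filled) and non-cycling Foxp3-negative CD4 T cells (open), 1 point per library. Ikzf2 lay at 2407 CPM or more in the former and at 845 or less in the latter, while Pdcd1, Cxcr6, Cd40lg, Tcf7 and Ifng lay lower in the former in each library.

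Some helper genes of CD4 T cells were lower. In a list of 12 tested genes of helper programs, 6 passed downward and 2 upward, with a median of -0.99. Without the library block 3 passed downward and 0 upward, and without the IL-10/2-Trikine or the combination library 1 passed upward. Cd40lg, the ligand by which helper T cells license B cells and dendritic cells, was at 22.1, 19.6 and 15.7 CPM against 98.5, 104 and 50.6, and Ifng at 124, 135 and 128 against 374, 234 and 458. Il21, Il13 and Il4 also passed downward, with log2 fold changes of -2.55, -2.42 and -2.15, as did Tbx21 (-0.59), the transcription factor of the type 1 program. The 2 that passed upward were the chemokine receptors Cxcr3 (1.004 ± 0.11) and Ccr6 (1.31 ± 0.39), so the type 1 receptor Cxcr3 was higher where Tbx21 and Ifng were lower. The lowest log2 fold changes among well-measured genes were those of Tnfsf11 (-2.60), Ccl1 (-2.52), Tnfsf8 (-2.08), Cd40lg, Hspa1b (-2.03), Serpine2 (-1.89), Tbc1d4 (-1.87), Hspa1a (-1.86), Ccl3 (-1.83), Xcl1 (-1.72), Tcf7 (-1.65) and Gzma (-1.63), whose UMIs were also found in 24.8, 46.1 and 53.9% of neutrophils. Among them were the TNF ligands Tnfsf11 (RANKL), Tnfsf8 (CD30 ligand) and Cd40lg, the chemokines Ccl1, Ccl3 and Xcl1, and the inducible chaperones Hspa1a and Hspa1b. Of 13 heat shock and early response genes, 5 passed, each of them downward and a chaperone or its partner (Hspa1a, Hspa1b, Hsp90aa1, Dnajb1 and Hsph1), but without the mono-IL-10 library 4 passed upward and 6 downward.

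Among the highest log2 fold changes under the same rule were those of Ankrd55 (3.31), Klrg1, Itgb8, Iigp1 (2.19), Tbc1d30 (2.15), Izumo1r (2.06), Ikzf2, Itgae (2.01), Arl5a (1.88), Cd81 (1.87) and Ttn (1.87). Itgae encodes CD103, the integrin chain that binds E-cadherin on epithelium, and was at 219, 260.3 and 268 CPM against 49.9, 85.8 and 55.5. Over 17 tested homing genes, 10 passed upward and 2 downward, with a median of 0.69, and 4 and 1 without the library block. Ccr2, a receptor of inflammatory chemokines, was at 194, 348 and 225 CPM against 88.4, 131 and 64.8. Itgb1 (-0.71 ± 0.08) and Cxcr6 were the 2 that passed downward.

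Of 10 central or naive genes, 2 passed upward, Ccr7 among them, and 2 downward, Tcf7 and Bach2, so the list did not move as a whole (median -0.05). Tcf7, the transcription factor of stem-like T cells, was at 71.6, 24.97 and 33.4 CPM against 289.9, 109 and 64.7, and Lef1, which often accompanies it, at 169, 124 and 124 against 279, 121 and 90.7 without passing (-0.03 ± 0.16). Il7r, low on most regulatory T cells, was at 467, 741 and 544 CPM against 452, 863 and 628 and did not pass (-0.12 ± 0.08, edgeR adjusted p = 0.376).

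Most interferon-γ and MHC class I genes tested were higher in regulatory T cells. In the interferon-γ list 15 of 19 tested genes passed (median 0.53), in the type I interferon list 10 of 20 (0.43) and in the MHC class I list 9 of 11 (0.30), each of them upward. Iigp1, an immunity-related GTPase, was at 182, 167 and 288 CPM against 38.3, 46.5 and 54.7 (log2 fold change 2.19 ± 0.11, edgeR adjusted p = 1.29e-06). The guanylate-binding protein gene Gbp3 was at 131, 169 and 201 against 58.8, 76.8 and 82.0 and Ifi27l2a at 766, 657 and 701 against 313, 267 and 175. Without the IL-10/2-Trikine library 8, 4 and 1 genes of the 3 lists passed, with medians of 0.46, 0.46 and 0.25, and without the combination library 8, 5 and 2, with medians of 0.41, 0.35 and 0.28. Without the library block 5, 3 and 0 passed, with medians of 0.48, 0.39 and 0.30, and by DESeq2 11, 5 and 6. The calls over all genes fell as well, from 1593 to 759 without the IL-10/2-Trikine library, 922 without the combination library, 421 without the block and 805 by DESeq2. The Ifitm family, also interferon-inducible, was the reverse, with 3 of 3 genes lower, at log2 fold changes of -1.08 ± 0.16 for Ifitm1, -0.68 ± 0.17 for Ifitm2 and -0.85 ± 0.09 for Ifitm3, of which 2 passed without the IL-10/2-Trikine or the combination library and 0 without the library block.

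The receptors of the given cytokines were also compared. Over 19 tested receptor, kinase and STAT genes, 7 passed upward and 1 downward, a count that was 3 upward without the IL-10/2-Trikine library, 4 by DESeq2 and 1 without the library block. All chains of the IL-2 receptor were higher, Il2ra by 1.58, Il2rb by 0.31 ± 0.08 and the common chain Il2rg by 0.29 ± 0.07. Of the IL-10 receptor, Il10rb passed (0.44 ± 0.11) and Il10ra, the chain that binds IL-10, did not, at 76.9, 47.5 and 29.9 CPM against 61.8, 37.9 and 31.1 (0.21 ± 0.11). The shared chain of the IL-6 family, Il6st, was at 83.2, 70.4 and 75.9 against 49.7, 25.7 and 17.8 and passed upward (1.504 ± 0.19). Stat3, which IL-10 activates, was the gene that passed downward, at 675, 596 and 699 CPM against 822, 648 and 940.1 (log2 fold change -0.26 ± 0.08, edgeR adjusted p = 0.0443). That call was lost by DESeq2, without the library block, without called doublets, with cycling cells included, with a Cd4 UMI required and without the IL-10/2-Trikine or the combination library. Stat5a and Stat5b, which IL-2 activates, did not pass (-0.18 ± 0.09 and -0.07 ± 0.08).

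Of 14 genes responsive to IL-2 and STAT5, 6 passed upward and 3 downward, and of 11 responsive to IL-10 and STAT3, 7 passed upward and 1 downward, and without the library block 1 gene of each list passed, upward. Maf, a transcription factor that drives Il10, was at 352, 537 and 574 CPM against 286, 373 and 402 (0.47 ± 0.07). Bcl2, a survival gene, was at 56.8, 35.6 and 34.5 against 131, 82.3 and 55.1 (-0.99 ± 0.12) and was 1 of those lower. Of 9 genes induced by antigen receptor signaling, Tnfrsf9 passed upward and Nr4a2, Nfatc1 and Egr3 downward. In the checkpoint and costimulation list, 8 of 17 passed upward, Cd27 (1.06 ± 0.08), Icos (0.36 ± 0.07) and Cd274 (0.54 ± 0.09) among them, and 3 downward, Pdcd1, Havcr2 and Btla, against 4 and 0 without the library block. Metabolic lists were near the median of all genes, with 1 of 13 glycolysis genes upward and 1 downward, and 0 of 13 cholesterol and lipid genes by edgeR or DESeq2, where edgeR gave 2, Sqle and Scd2, at an unadjusted p under 0.05. Of 5 tested B cell markers, 4 were higher in regulatory T cells, 1 of 8 NK cell markers was higher and 3 lower, and 2 of 4 dendritic cell markers were higher, where without the library block 0, 0 and 2 markers passed. The part of these cells in the gene calls was not tested.

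**Figure D3:**
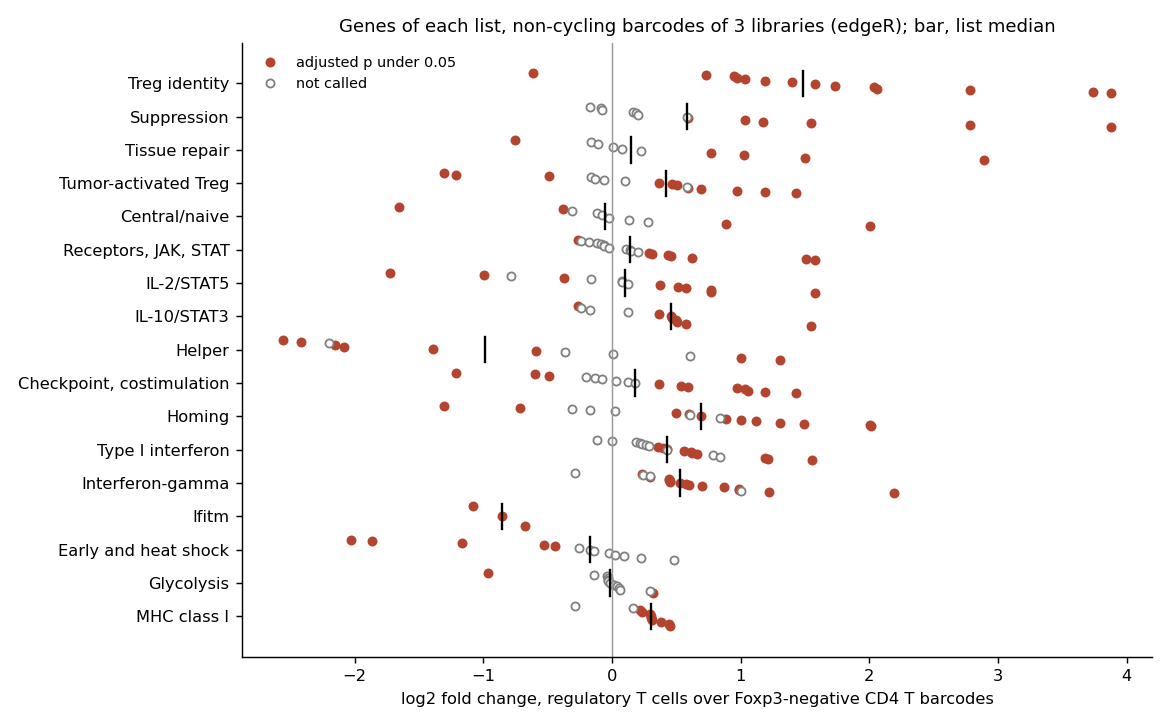
Log2 fold change of each gene of 17 lists in non-cycling regulatory T cells against non-cycling Foxp3-negative CD4 T cells (edgeR), filled where the adjusted p was under 0.05, with a bar at the list median. Core genes (13 of 14 upward) and interferon-γ genes (15 of 19 upward) lie mostly above 0, and helper genes (6 of 12 downward) mostly below.

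Between the mono-IL-10 and IL-10/2-Trikine libraries, few genes of non-cycling regulatory T cells differed by 2-fold or more, counted after adding 0.5 UMI to each sum. Among 6565 genes with at least 20 UMIs in the pair and 20 CPM in the higher library, 88 (1.34%) were at least 2-fold higher with the IL-10/2-Trikine and 157 (2.39%) at least 2-fold lower. All genes together had a median log2 ratio of -0.09. Among the core genes 1 of 13 was past 2-fold. This was Il2ra, at 227, 479.7 and 425 CPM, a ratio of 2.11 (1.82 to 2.45), where the interval in parentheses is an exact 95% interval for counting error. Its thinned share was 20, 34.0 and 28.8%, against 1.39, 2.71 and 1.8% in neutrophils. Unthinned, the share with an Il2ra UMI was 1.53 times as high with the IL-10/2-Trikine in regulatory T cells, 1.92 times (1.55 to 2.37) in neutrophils and 2.88 times (2.27 to 3.64) in B cell barcodes, and the part of free RNA in the ratio was not tested. Foxp3-negative CD4 T cells held 49.4, 197 and 159 CPM, also higher in both IL-10/2-Trikine libraries. Ikzf2 was at a ratio of 0.912 (0.87 to 0.956) and Itgb8 of 0.732 (0.58 to 0.93), so the higher level of Il2ra was not shared by all core genes, whose median was 0.10. In Foxp3-negative CD4 T cells the core median was 0.61.

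Most log2 ratios of suppressive and repair genes were above 0 for the IL-10/2-Trikine divided by mono-IL-10, and few were past 2-fold. In the suppression list 12 of 13 log2 ratios were above 0 with a median of 0.50, and in the repair list 9 of 10 with a median of 0.36, against 3720 of 9023 genes above 0 over all genes. Past 2-fold were 1 of 12 suppression genes and 1 of 9 repair genes with enough UMIs for that call, Gzmb and Il1rl1. The same medians in Foxp3-negative CD4 T cells were 0.34 and 0.44. Of 5 NK cell markers with enough UMIs in regulatory T cells, 3, Gzma among them, were past 2-fold upward and 1 downward. Their part in the ratio of Gzmb was not tested. Gzmb was at 2371, 4845 and 4463 CPM, a ratio of 2.04 (1.95 to 2.14), Il10 at a ratio of 1.61 (1.33 to 1.956) and Areg at 1.54 (1.43 to 1.67). Il1rl1 was at 37.9, 123 and 118 CPM, a ratio of 3.25 (2.3 to 4.73), with thinned shares of 3.23, 9.71 and 9.45% against 0.252, 0.388 and 0.338% in neutrophils. Unthinned, the share of barcodes with an Il1rl1 UMI was also higher with the IL-10/2-Trikine in neutrophils, 2.001 times (1.31 to 3.06), and in B cell barcodes, 3.79 times (2.19 to 6.54), and the part of free RNA in the ratio was not tested. The same holds for Areg, whose unthinned share was 1.44 times as high in regulatory T cells and 1.51 times (1.18 to 1.93) in neutrophils. For Gzmb and Il10 the part of free RNA in the ratio was not tested either. The ratios of the combination over the IL-10/2-Trikine were 0.921, 0.848, 0.815 and 0.961 for these 4 genes.

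Among cytokine response genes, Socs2, a feedback inhibitor induced through STAT5, was at 29.5, 129 and 90.5 CPM, a ratio of 4.36 (2.96 to 6.67), and its thinned share was 3.87, 12.6 and 6.37% against 0.568, 0.904 and 1.13% in neutrophils. Foxp3-negative CD4 T cells held 16.4, 93.9 and 65.7 CPM. Cish, another STAT5 target, was at a ratio of 1.47 (1.17 to 1.86), Pim1 of 1.33 (1.23 to 1.44), Bcl2 of 0.626 (0.441 to 0.897) and Myc, at 39.0, 13.9 and 13.2 CPM, of 0.357 (0.218 to 0.585), so the list of IL-2 and STAT5 genes did not move in 1 direction (9 of 13 above 0, median 0.41). The list of IL-10 and STAT3 genes had a median of 0.10, with Maf at 1.53 (1.35 to 1.73), Socs3 at 1.13 (0.906 to 1.42) and Prdm1 at 0.569 (0.451 to 0.72). Pdcd1 was at 68.4, 138 and 197 CPM and Cxcr6 at 94.7, 188 and 202, ratios of 2.01 (1.54 to 2.66) and 1.98 (1.58 to 2.51), both just short of 2-fold once 0.5 UMI was added.

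All 3 Ifitm genes were past 2-fold, with Ifitm2 at 272, 833 and 629.5 CPM and ratios of 2.67, 3.07 and 2.14 for Ifitm1, Ifitm2 and Ifitm3. Their list median was 1.41 in non-cycling regulatory T cells, 2.03 in Foxp3-negative CD4 T cells and 1.97 in CD8 T cells. Other interferon genes did not follow, with list medians of -0.19 for type I and -0.13 for interferon-γ genes. Neutrophils held an Ifitm2 UMI in 51.2, 65.8 and 50.8% after thinning and regulatory T cells in 12.3, 34.2 and 25.5%, but 93.5, 91.0 and 89.3% of neutrophils held one before thinning, so neutrophils are no background for this gene and the part of free RNA in the ratio was not tested. Among genes of at least 50 CPM in the higher library, with antigen receptor and immunoglobulin genes left aside, the largest ratio was that of Gzma, encoding granzyme A, at 243, 2026 and 1917 CPM and a ratio of 8.33 (7.3 to 9.55). Its thinned share was 10.3, 30.9 and 26.4% in regulatory T cells and 9.34, 23.5 and 19.7% in neutrophils, with 1389, 4641 and 4994 CPM in Foxp3-negative CD4 T cells. Neutrophils held 620, 2742 and 1084 CPM, so that with the IL-10/2-Trikine the share lay above that of neutrophils and the CPM below it, and the part of free RNA in the ratio was not tested.

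Beside Gzma, Socs2, Il1rl1 and Ifitm2, the 10 largest ratios under the same limits were those of Pclaf (3.63), Ms4a6c (3.27), Frmd5 (3.09), Fabp5 (2.9), Fdps (2.93) and Calca (2.79). Frmd5 was at 18.9, 58.5 and 34.1 CPM, against 4.7, 5.31 and 4.59 in Foxp3-negative CD4 T cells. Pclaf takes part in DNA replication, and 6 genes of the S and G2/M lists, Birc5, Ccnb2, Kif23, Tubb4b, Cks1b and Tyms, were also past 2-fold in these cells under the cycling limit. They were 1 of 23 S phase and 5 of 20 G2/M genes with enough UMIs for that call, against 88 of 6565 over all genes. Fdps and Fabp5 lay below their thinned shares in neutrophils, 1.29, 2.43 and 1.98% against 1.956, 3.62 and 2.93% and 6.45, 10.2 and 10.8% against 8.08, 20.7 and 12.8%. Before thinning, 19.9, 22.4 and 16.7% of neutrophils held an Fdps UMI and 32.5, 47.9 and 31.8% a Fabp5 UMI. Whether neutrophils lack these transcripts was not tested, so they are not read as background for these genes. Calca, a marker of the KP1 tumor cells, was seen in 10.5% of non-cycling cells of the IL-10/2-Trikine library, and 27 of its 38 UMIs in the mono-IL-10 library lay in 1 barcode. Its thinned share was 1.94, 5.08 and 2.64% in non-cycling cells and 0, 0.258 and 0.338% in neutrophils. The part of tumor cells in its ratio was not tested.

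Lower with the IL-10/2-Trikine were Il6ra, the IL-6 receptor, at 28.4, 6.96 and 6.62 CPM and a ratio of 0.245 (0.125 to 0.466), Tcf7 at 0.349 (0.243 to 0.5002), and the decoy IL-1 receptor Il1r2 at 0.47 (0.381 to 0.58). The chaperones Hspa1b and Hspa1a were at ratios of 0.267 (0.181 to 0.39) and 0.389 (0.267 to 0.566). Eomes, a T-box factor of cytotoxic cells, was at 28.4, 4.91 and 8.7 CPM, a ratio of 0.173 (0.0797 to 0.353). Each of these genes was also lower in Foxp3-negative CD4 T cells, with Tcf7 at 289.9, 109 and 64.7 CPM and Il6ra at 38.9, 8.68 and 4.003. The remaining genes with the lowest ratios were Mzb1 and Slpi, of which 1 barcode of the mono-IL-10 library held 177 of 187 and 149 of 151 UMIs, and Bank1 (0.0446), Mef2c (0.101), Rhob (0.168), Cd24a (0.222), Dscam (0.255), Aff3 (0.264) and Pkp4 (0.299). In the mono-IL-10 library 1 barcode also held 35 of 58 Rhob UMIs, and 1 held 31 of 49 Cd24a UMIs. Bank1 and Mef2c are abundant in B cells, and the B cell markers Cd79a and Ebf1 were at ratios of 0.0633 and 0.127 in the same cells. B cell markers summed to 447 and 279 CPM over all kept barcodes of the mono-IL-10 and IL-10/2-Trikine libraries, and their part in these ratios was not tested.

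**Figure D4:**
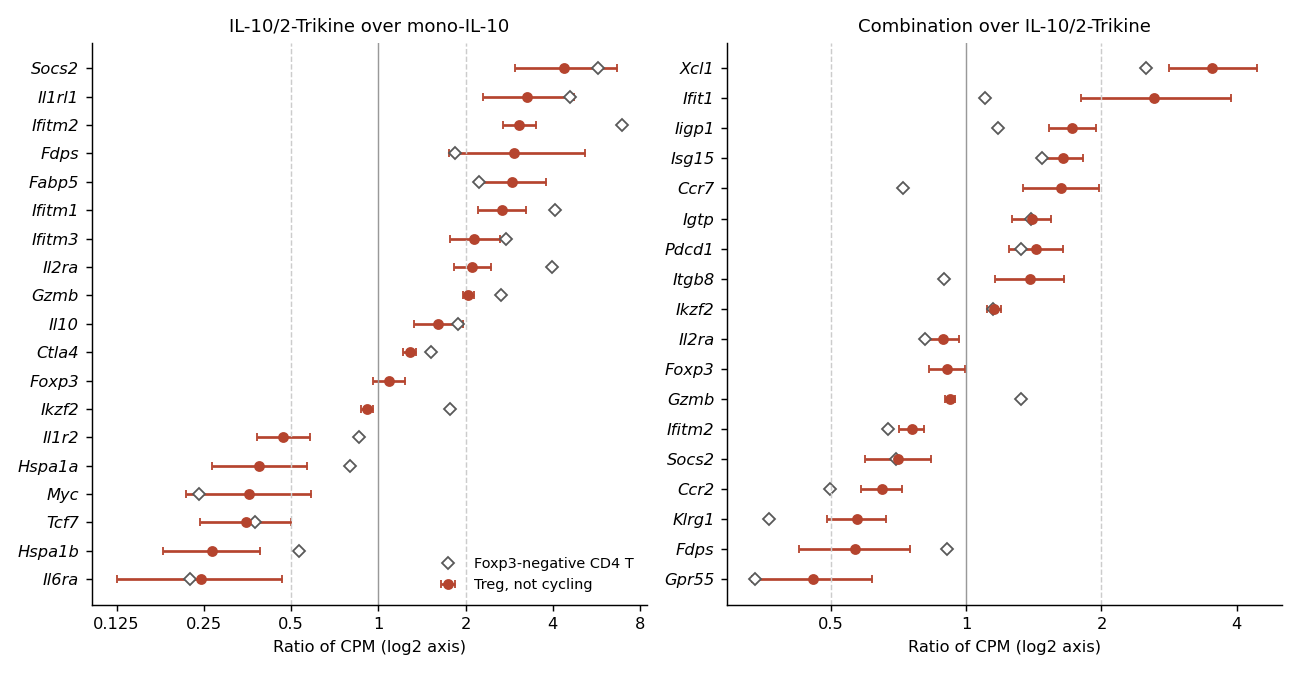
Ratios of CPM (log axis, dashed lines at 2-fold) with exact 95% intervals for counting error in non-cycling regulatory T cells (circles) beside the ratios in non-cycling Foxp3-negative CD4 T cells (diamonds, no interval drawn), for the IL-10/2-Trikine divided by mono-IL-10 and for the combination over the IL-10/2-Trikine. In regulatory T cells, Il2ra (2.11), Gzmb (2.04) and Socs2 (4.36) lie past the upper line in the first comparison, and most genes lie between the lines in the second.

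Non-cycling regulatory T cells of the combination and IL-10/2-Trikine libraries differed at few genes. Both comparisons use the IL-10/2-Trikine library, so they are not independent of each other. Among 6251 genes, 19 (0.304%) were at least 2-fold higher in the combination and 15 (0.240%) at least 2-fold lower, with a median log2 ratio of 0.00. Of the core, suppressive and repair lists 0 genes passed 2-fold. Ratios were ranked under the same limits as in the other comparison, with antigen receptor and immunoglobulin genes left aside. Apart from Slpi, of which 1 barcode held 143 of 165 UMIs, the largest ratio in that ranking was that of Xcl1. Xcl1, a chemokine that draws cross-presenting dendritic cells, was at 17.9, 40.5 and 143 CPM, a ratio of 3.53 (2.83 to 4.44). Its thinned share was 0.645, 1.55 and 5.05% against 2.4, 3.62 and 2.25% in neutrophils, above background in the combination library and below it in the other libraries, and Foxp3-negative CD4 T cells held 364, 115 and 289 CPM. The B cell gene Ighm, mostly from 1 barcode, and the macrophage gene C1qc (3.22) were also past 2-fold, and the part of other cell types in this comparison was not tested.

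Most log2 ratios of interferon-γ and MHC class I genes were above 0 for the combination over the IL-10/2-Trikine. In the interferon-γ list 18 of 19 log2 ratios were above 0 with a median of 0.25, and in the MHC class I list 10 of 11 with a median of 0.12. Over all genes of this pair 4940 of 9846 were above 0. Iigp1 was at 182, 167 and 288 CPM, a ratio of 1.72 (1.53 to 1.94), and Igtp at 1.4 (1.26 to 1.55). In the type I list 12 of 19 were above 0 with a median of 0.17, and 1 gene, Ifit1, was past 2-fold. Isg15 was at 265, 232 and 382 CPM, a ratio of 1.64 (1.48 to 1.82), and Ifit1 at 20, 15.6 and 40.7, a ratio of 2.62 (1.8 to 3.88). The interferon-γ median was 0.23 in Foxp3-negative CD4 T cells, 0.68 in CD8 T cells and 0.80 over all kept barcodes of the same pair.

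The ranking of this pair covered genes of at least 50 CPM in the higher library, with antigen receptor and immunoglobulin genes left aside. The other genes with the largest ratios were Btaf1 (1.69), Marchf3 (1.67), Ly6c2 (1.65), Nhp2 (1.65), Washc4 (1.64) and Ccr7 (1.62). Pdcd1 was at 68.4, 138 and 197 CPM, a ratio of 1.43 (1.25 to 1.64). At the other end of the same ranking lay Calca (0.262), Alox5ap (0.358), the receptor Gpr55 (0.456), the peptidase gene Dpp4 (0.533), Ctla2a (0.538), Cst3 (0.54), Ifi30 (0.547), Zfp36 (0.561), Fdps (0.565) and Klrg1 (0.57). Klrg1 was at 104, 178 and 102 CPM and was thus highest in the IL-10/2-Trikine library, and the part of free RNA in this order was not tested. In the cholesterol and lipid list 0 of 12 log2 ratios were above 0, with a median of -0.42, and 0 of these genes at 20 CPM or more passed 2-fold. The same median was -0.14 in Foxp3-negative CD4 T cells, -0.16 in CD8 T cells and -0.34 over all kept barcodes. Ccr2, at 194, 348 and 225 CPM, was also highest with the IL-10/2-Trikine alone, with ratios of 1.8 (1.53 to 2.12) over mono-IL-10 and 0.648 (0.584 to 0.718) for the combination over it.

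Division was compared next. The cycling share of regulatory T cells was 29.1% (23.3 to 35.6) with mono-IL-10, 38.6% (35.1 to 42.2) with the IL-10/2-Trikine and 37.3% (33.8 to 40.9) with the combination, with ratios of 1.32 (1.06 to 1.66) and 0.968 (0.849 to 1.10). After thinning to 1000 UMIs, with at least 1 UMI of Mki67 or Top2a as the limit, the shares were 23.6%, 34.3% and 30.9%. With at least 1 such UMI in unthinned cells the first ratio was 1.02 (0.899 to 1.15). Without called doublets the ratios were 1.20 (0.938 to 1.54) and 1.13 (0.975 to 1.31), both within counting error. Doublets were called at a separate threshold in each library, which took out 12.3%, 27.5% and 2.19% of the cycling cells. The ratios without called doublets are therefore not comparable between libraries, and no direction is read from them. The limit of at least 3 UMIs that defines the cycling class was reached by 24.5%, 23.3% and 20.7% of neutrophil barcodes, which should rarely divide, and the thinned limit by 17.8%, 20.4% and 16.7% of them. In B cell barcodes, which can divide, the shares were 25.04%, 37.0% and 20.6%, a ratio of 1.48 (1.24 to 1.76) for the IL-10/2-Trikine divided by mono-IL-10, and 1.53 (1.23 to 1.91) after thinning. The first ratio in regulatory T cells was thus not above that in B cell barcodes, and the part of free RNA in it was not tested.

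Other T cells differed more between the libraries. The cycling share of Foxp3-negative CD4 T cells was 16.2%, 42.6% and 28.3%, and that of CD8 T cells 18.6%, 42.4% and 21.0%. The share in regulatory T cells in the combination was thus 0.968 times that with the IL-10/2-Trikine alone, where it was 0.664 times (0.619 to 0.711) in Foxp3-negative CD4 T cells and 0.496 times (0.464 to 0.530) in CD8 T cells. After thinning the ratios were 0.899 (0.776 to 1.04), 0.708 (0.656 to 0.763) and 0.576 (0.537 to 0.617). The interval for regulatory T cells did not overlap those of the other T cells in either case, and it covers counting error only. For the same pair the ratio in neutrophils was 0.888 (0.744 to 1.06), and 0.816 (0.667 to 0.9997) after thinning. Both overlapped the intervals for regulatory T cells. In B cell barcodes it was 0.557 (0.427 to 0.726) and 0.608 (0.445 to 0.831). Thinned regulatory T cells were still those chosen by an unthinned Foxp3 UMI. The part of free RNA in these ratios was not tested.

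Cycling and non-cycling regulatory T cells were compared by the same edgeR test, with Mki67 and Top2a left out. Of 9992 genes, 2735 (27.4%) were higher and 2447 (24.5%) lower in cycling cells. All 42 tested S phase genes and all 50 tested G2/M genes passed upward, which the choice of the classes by Mki67 and Top2a makes a description. Outside these lists the highest log2 fold changes were those of Esco2 (7.19), Sgo2a (6.57), H3c3 (5.85), H1f5 (5.65), Neil3 (5.65), Knl1 (5.56), H2ac24 (5.51), H1f1 (5.51), Fbxo5 (5.29), Aspm (5.21), Kif4 (5.197) and Ccna2 (5.17). Among these are genes of linker and core histones, of proteins of chromosome cohesion and the kinetochore, and of cyclin A. Histone H1f5 was at 1508, 1384 and 1237 CPM in cycling and 30.5, 34.8 and 22.6 in non-cycling cells.

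Glycolysis and cholesterol genes were higher in cycling cells, with 8 of 13 and 8 of 12 tested genes passing, each of them upward. Without the combination library 4 cholesterol genes passed, and 8 glycolysis genes. Ldha was at 1144, 1351 and 1324 CPM in cycling and 675, 884 and 889 in non-cycling cells (log2 fold change 0.75 ± 0.05, edgeR adjusted p = 3.04e-09), and Idi1, of cholesterol synthesis, at 54.5, 94.1 and 74.9 against 25.3, 43.4 and 34.1. The chaperone gene Hsp90aa1 was at 996, 991 and 968 against 335, 344 and 406 (log2 fold change 1.54 ± 0.07). Myc was at 62.2, 18.6 and 26.4 CPM against 39.0, 13.9 and 13.2 and passed upward (0.82 ± 0.17).

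Nearly all effector lists were lower in cycling cells as a share of their UMIs. Of 14 core genes 13 passed downward, of 13 suppressive genes 12, of 19 receptor and STAT genes 18, of 17 checkpoint genes 15 and of 19 type I interferon genes 16, and no member of these lists passed upward. The core gene that remained short of the threshold was Il2ra, at 182, 369 and 409 CPM in cycling and 227, 479.7 and 425 in non-cycling cells (log2 fold change -0.13 ± 0.07, edgeR adjusted p = 0.143). Il10 was at 53.6, 64.8 and 82.4 against 141, 227 and 192 (-1.38 ± 0.10) and Itgae at 49.8, 72.5 and 71.4 against 219, 260.3 and 268 (-1.81 ± 0.08). Il7r was at 146, 218 and 196 against 467, 741 and 544 (-1.53 ± 0.07), while S1pr1 and Klf2, a receptor and a factor of egress from tissue, passed upward (0.54 ± 0.10 and 0.43 ± 0.08). The immunoproteasome genes Psmb8 and Psmb9 were the 2 of 19 interferon-γ genes that passed upward, and 14 passed downward. The lowest values, beside those of Itgae and Il7r, were those of Mzb1 (-4.25, mostly in 1 barcode), Calca (-3.24), Tcp11l2 (-2.32), Gdpd3 (-1.84), Kdm5b (-1.76), Izumo1r (-1.68), Csf1 (-1.65), Klhl24 (-1.62), Ypel3 (-1.60) and Mxd4 (-1.59). A lower CPM in cycling cells is a smaller share of more UMIs per cell and does not show fewer transcripts per cell.

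Cycling regulatory T cells were set beside cycling Foxp3-negative CD4 T cells for a few genes, as values with no test. Ikzf2 was at 1636, 1507 and 1728 CPM against 624, 518 and 611, Itgb8 at 42.1, 27.1 and 42.4 against 10.5, 2.68 and 3.46, and Izumo1r at 91.9, 55.4 and 66.4 against 34.2, 8.64 and 14.3. Each of these 3 genes was higher in cycling regulatory T cells within each library, and how many of all genes differ in this way was not counted. Gzmb was at 1441, 3032 and 2453 against 914, 1085 and 1762 and Il2ra at 182, 369 and 409 against 88.8, 261 and 248, where the classes overlapped over the 3 libraries although regulatory T cells were higher within each library. Cycling regulatory T cells held 446, 3912 and 2048 CPM of Gzma, with thinned shares of 13.8, 48.4 and 37.2%, above the neutrophil shares in the IL-10/2-Trikine and combination libraries. Called doublets made up 27.5% of the cycling cells of the IL-10/2-Trikine library, and their part in these levels was not tested.

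**Figure D5:**
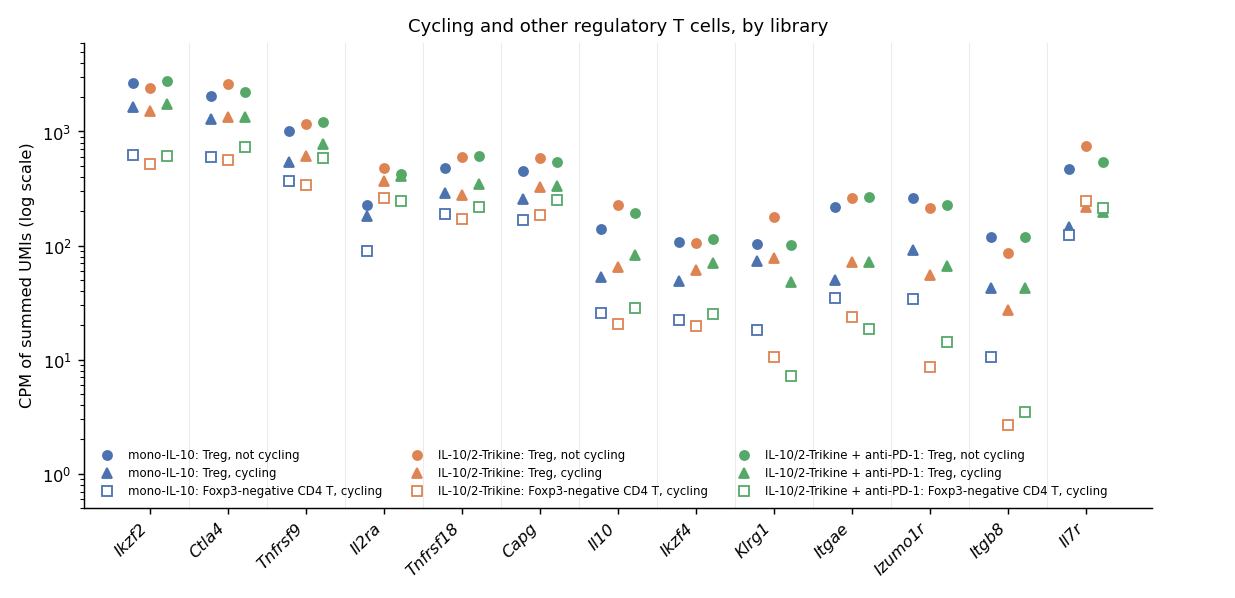
Levels of 13 genes (CPM, log axis) in non-cycling regulatory T cells, cycling regulatory T cells and cycling Foxp3-negative CD4 T cells, 1 point per library. Ikzf2 in cycling regulatory T cells lay at 1507 to 1728 CPM, between the non-cycling cells and the cycling Foxp3-negative CD4 T cells at 624 CPM or less.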

How the data were processed

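Per the labels, CD45+ cells of 3 tumor samples were profiled with 10x Genomics 3' chemistry. The authors deposited raw UMI counts per barcode for 33696 features, aligned and counted with Cell Ranger. The matrix headers name version 8.0.0 and the labels name the build mm10, while the methods name other releases, so no coordinates are given. A barcode was retained with 200 or more genes and no more than 20% of UMIs from mitochondrial genes. The methods give fewer cells for these limits, and no other filter was applied here. The members and the 21 functional gene lists were chosen with earlier results of these data known.

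UMIs were summed per library and class. Libraries were compared by shares with exact Clopper-Pearson intervals, by ratios of shares with log-scale intervals, and by CPM ratios with exact conditional binomial intervals (95%). Between libraries, called means a 2-fold difference after adding 0.5 UMI. Classes were compared with edgeR 4.0.16 (quasi-likelihood test, TMM, library as block, filterByExpr, Benjamini-Hochberg adjusted p under 0.05). DESeq2 1.42.0 was an alternative. The edgeR test and the interval of the CPM ratio were tried on simulated counts, and DESeq2 was not. For shares, cells were thinned to 1000 UMIs with seed 1, and shallower cells were left out. Doublets were called with Scrublet in scanpy 1.11.5 at an expected rate of 10% and kept in the main analysis. Neutrophil barcodes needed at least 2 UMIs of Csf3r, Retnlg and Cxcr2, and CD8 T barcodes at least 2 of Cd8a and Cd8b1.

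Named genes were the 12 highest and 12 lowest called genes of each test with at least 50 CPM in the higher class and 1 sign in all libraries, and the 10 highest and 10 lowest ratios of each library pair with at least 50 CPM, beside genes of the lists. Genes of the rule, mitochondrial, ribosomal, antigen receptor, immunoglobulin, hemoglobin and sex-linked marker genes were excluded, and S and G2/M genes also from the cycling comparison. Some genes that meet these rules are not reported here.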

Additional observations from a re-analysis of the deposited data

How the results depend on the processing

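The share of regulatory T cells among T cells stayed higher with the IL-10/2-Trikine than with mono-IL-10 under every alternative tried, with ratios of 1.89 to 2.13. For the combination over the IL-10/2-Trikine the ratios were 0.954 to 0.992, each within counting error, so no direction is read from them. These ratios all take T gate barcodes as the denominator. Among T gate barcodes without Cd8a or Cd8b1 UMIs they were 1.66 (1.44 to 1.92) and 0.902 (0.819 to 0.994). Over all kept barcodes they were 3.27 (2.82 to 3.79) and 0.831 (0.751 to 0.918), so the second ratio depended on the denominator. The cycling share was less stable. The first ratio was 1.02 with at least 1 UMI of Mki67 and Top2a, and without called doublets the ratios were 1.20 (0.938 to 1.54) and 1.13, the second above 1 where it was 0.968. The doublet threshold differed between libraries, so no direction is read from the ratios without called doublets. The 1593 genes that set regulatory T cells apart numbered 805 by DESeq2, 832 with cycling cells included, 421 without the library block and 759 to 1615 when 1 library was left out. Without a filter on low counts 996 genes were higher and 1058 lower, where the main split was 934 and 659. Requiring a Cd4 UMI, an alternative chosen after seeing the data, gave 1434. The 5182 genes of the cycling comparison numbered 3018 by DESeq2 and 3615 to 5130 when 1 library was left out.

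Counts of genes past 2-fold moved more. With the IL-10/2-Trikine against mono-IL-10, 88 higher became 43 with cycling cells included, and 157 lower became 246 with equal weight per cell, 243 with at least 2 Foxp3 UMIs, 104 with at least 50 UMIs in the pair and 89 with cycling cells included. For the combination over the IL-10/2-Trikine, 19 higher became 47 with equal weight per cell, 38 with at least 2 Foxp3 UMIs, 30 without called doublets and 10 with cycling cells included, and 15 lower became 52 with at least 2 Foxp3 UMIs. In that pair the median log2 ratio of the Ifitm genes turned to 0.10 with at least 2 Foxp3 UMIs and to 0.13 without called doublets, and Ly6c2 turned to -0.16 with cycling cells included. The cause was not tested in any of these cases. No paired analysis was possible because each group has 1 library, and the library block pairs classes within a library.

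A single library per group limits each comparison between treatments to counting error. The mono-IL-10 library gave 158 resting and 65 cycling regulatory T cells, and genes under 20 UMIs were not compared between libraries. Of all cells, 41.6% rest on 1 Foxp3 UMI. Genes whose UMIs lie mostly in 1 barcode (Mzb1, Slpi and Ighm among them) carry no information on the class.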
